A study of Mus musculus with 8 samples.

Results

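The Hippo pathway and TEAD genes described here are 10 of the 54532 genes in the deposited count table, and were taken by gene symbol. They are the coactivators Yap1 and Wwtr1, the 4 TEAD transcription factors Tead1 to Tead4, the kinases Lats1 and Lats2, and the angiomotin-like genes Amotl1 and Amotl2. All 10 were among the 15564 genes that passed the filter on low counts. They were measured by bulk RNA-seq in lung endothelial cells (ECs) of wild-type mice at day 14 after birth. From birth to that day the normoxia pups breathed room air with 21% O2 and the hyperoxia pups breathed 80% O2, with 4 libraries in each group. Long exposure of newborn mice to high oxygen serves as a model of bronchopulmonary dysplasia, the chronic lung disease of infants born preterm. In the study's methods the mice were C57BL/6J. Digested lungs were cleared of cells that bind beads against CD45, a leukocyte protein, and cells that bind beads against the endothelial protein CD31 were kept. Both groups carried no mutation and no added agent other than oxygen.

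Total counts ran from 16098086 to 18300730 per library. The 14 endothelial markers summed to between 21060 and 21752 CPM in normoxia and to between 20975 and 22764 CPM in hyperoxia, where CPM stands for counts per 1000000 after normalization of library size. The 20 epithelial markers summed to between 316 and 435 CPM in normoxia and to 933 to 2783 CPM in hyperoxia, so transcripts of other lung cells were counted in the isolates and were unequal between the groups. Hyperoxia 3 held the 933 CPM and stood apart from the other hyperoxia libraries, with a first principal component score of 20.3 against 40.2 to 42.9. Transcripts of Xist and of Y-linked genes were both abundant in 5 libraries, which therefore held RNA of pups of both sexes, while hyperoxia 3 held 7 Y-linked counts, and normoxia 2 and hyperoxia 4 held 3 and 5 Xist counts. The number of pups per library is not stated. The p-values thus set the group difference against the spread between these libraries, which may be partly technical.

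The Hippo pathway is a kinase relay that couples cell contact, shape and tension to transcription. The kinases MST1 and MST2 activate LATS1 and LATS2, and these phosphorylate YAP and its paralogue TAZ, the product of Wwtr1, which then stay in the cytoplasm or are degraded. When the kinases are quiet, YAP and TAZ enter the nucleus, where they bind DNA through the TEAD proteins. The angiomotin family binds YAP and TAZ at junctions and the actin skeleton, and Amotl2 and Lats2 are themselves known targets of YAP and TAZ, which forms a negative feedback. In ECs, YAP and TAZ are known for their part in vessel sprouting and in the response to flow. Because the relay works through phosphorylation and location, RNA levels describe the amount of transcript and not the activity of these proteins.

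TEAD proteins recognise the letters GGAATG, or CATTCC on the other strand. RefSeq promoter windows (mouse build GRCm38.p6, 250 bases before each annotated start) were found for 8 of the 10 genes, in 12 windows, and Tead1 and Tead4 had none. GGAATG was present on either strand in 4 of the 8 genes, against 14.4% of the 27025 genes with a window. A gene counted if any of its windows held the match, and the 27025 genes had 32851 windows. The 8 genes thus had more windows per gene, which makes the comparison uneven. The AP-1 letters TGANTCA, searched on both strands, were in 0 of the 8 genes and in 7.82% of all genes with a window. The 6 matches are shown as 30-base stretches in the direction of the gene, with the TEAD letters in capitals. They are given because YAP and TAZ act through these letters, which 4 of the 8 genes with a window carry near a start. Distances are to the start of the window that holds the match.
Amotl2, chr9:102717727-102717756 (+), 65 bases before the start: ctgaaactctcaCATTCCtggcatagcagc
Tead3, chr17:28350697-28350726 (-), 114 bases before: gctcattccgtaCATTCCggccatccccct
Tead3, chr17:28350706-28350735 (-), 123 bases before: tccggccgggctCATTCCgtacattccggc
Tead3, chr17:28350970-28350999 (-), 182 bases before: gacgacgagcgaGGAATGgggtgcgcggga
Wwtr1, chr3:57576029-57576058 (-), 170 and 136 bases before its 2 starts: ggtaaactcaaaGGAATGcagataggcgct
Yap1, chr9:8004720-8004749 (-), 141 bases before: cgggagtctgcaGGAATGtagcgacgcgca
The first pair of Tead3 stretches overlap, since their matches lie 9 bases apart. The Amotl2 stretch and the first 2 Tead3 stretches lie inside the annotated genes, before starts downstream of the first one, and their windows hold 136 and 217 exon bases of the same gene. For Wwtr1, the coactivator gene with the higher level, the window chr3:57575911-57576160 holds no annotated exon and is given whole.
Wwtr1, minus strand: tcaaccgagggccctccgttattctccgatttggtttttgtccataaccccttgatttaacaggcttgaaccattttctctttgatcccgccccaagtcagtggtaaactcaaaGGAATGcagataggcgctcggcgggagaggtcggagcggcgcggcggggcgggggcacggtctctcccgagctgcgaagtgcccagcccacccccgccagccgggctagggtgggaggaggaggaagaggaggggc
Such a match is a run of letters and was not tested for binding.

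The coactivators moved in opposite directions in hyperoxia. Yap1 (ENSMUSG00000053110, chr9:7931999-8004596, minus strand, GRCm38) stood at 180, 180, 169 and 177 CPM in normoxia 1 to 4 and at 150, 152, 156 and 147 CPM in hyperoxia 1 to 4. Every hyperoxia library lay below every normoxia library. The mean fell from 177 ± 5.08 to 151 ± 3.79 CPM (SD, n = 4 each), a log2FC (log2 of the fold change, hyperoxia over normoxia) of -0.22 (SE 0.0412, edgeR quasi-likelihood test, adjusted p = 0.00172). Adjustment here and below was by Benjamini-Hochberg over all 15564 genes. Wwtr1 (ENSMUSG00000027803, chr3:57455649-57575910, minus strand), which encodes TAZ, stood at 383, 395, 394 and 441 CPM in normoxia and at 508, 534, 514 and 517 CPM in hyperoxia. Its groups did not overlap either, with hyperoxia above. Its mean rose from 403 ± 26.02 to 518 ± 11.2 CPM, a log2FC of 0.36 (SE 0.0515, adjusted p = 0.000341). In bulk samples such as these, fewer cells of a type and less RNA per cell cannot be told apart.

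The 4 TEAD genes split into 2 that rose and 2 that fell. Tead1 (ENSMUSG00000055320, chr7:112679318-112906807, plus strand) stood at 45.6, 44.3, 39.8 and 42.7 CPM in normoxia and at 62.8, 72.1, 57.6 and 65.7 CPM in hyperoxia. All hyperoxia libraries were above all normoxia libraries, and hyperoxia 3 was the lowest of them. The mean went from 43.1 ± 2.50 to 64.6 ± 6.03 CPM, a log2FC of 0.58 (SE 0.0724, adjusted p = 0.00014), which is the smallest p among the 10 genes. Tead3 (ENSMUSG00000002249, chr17:28331671-28350817, minus strand) was scarce, with 40, 14, 31 and 27 counts in normoxia and 78, 105, 49 and 79 counts in hyperoxia. These are 2.45, 0.797, 1.73 and 1.49 CPM against 4.45, 5.95, 2.80 and 4.38 CPM, without overlap, and hyperoxia 3 was again closest to normoxia. Tead3 had the largest fold change of the 10, from 1.62 ± 0.682 to 4.397 ± 1.28 CPM (log2FC 1.44, SE 0.318, adjusted p = 0.00487).

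Tead2 and Tead4, the TEAD genes with the highest level per length, both fell. Tead2 (ENSMUSG00000030796, chr7:45215753-45233644, plus strand) stood at 91.0, 98.3, 84.2 and 90.6 CPM in normoxia and at 66.0, 71.5, 74.4 and 67.3 CPM in hyperoxia. The highest hyperoxia library, hyperoxia 3, was below the lowest normoxia library. The mean went from 91.0 ± 5.75 to 69.8 ± 3.86 CPM, a log2FC of -0.38 (SE 0.0590, adjusted p = 0.000568). Tead4 (ENSMUSG00000030353, chr6:128224288-128300823, minus strand) stood at 63.3, 68.2, 56.2 and 66.6 CPM in normoxia and at 40.8, 53.8, 55.6 and 47.6 CPM in hyperoxia. Its groups came within 1 CPM of each other, hyperoxia 3 at 55.6 and normoxia 3 at 56.2 CPM. The mean went from 63.6 ± 5.34 to 49.5 ± 6.73 CPM, a log2FC of -0.36 (SE 0.0969, adjusted p = 0.014).

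The LATS kinases changed little. Lats1 (ENSMUSG00000040021, chr10:7681214-7716460, plus strand) stood at 83.9, 80.9, 75.3 and 84.8 CPM in normoxia and at 83.3, 85.7, 84.0 and 86.0 CPM in hyperoxia, so the groups overlapped. Its log2FC of 0.06 did not pass the threshold (SE 0.0479, adjusted p = 0.348), with a 95% interval from -0.04 to 0.17. Lats2 (ENSMUSG00000021959, chr14:57689662-57758388, minus strand), the paralogue that YAP and TAZ induce, stood at 134, 127, 125 and 138 CPM in normoxia and at 110, 121, 121 and 117 CPM in hyperoxia. All hyperoxia libraries were below all normoxia libraries, by a small margin. Lats2 fell from 131 ± 5.96 to 117 ± 5.14 CPM, a log2FC of -0.16 (SE 0.0496, adjusted p = 0.0309). That call was lost without normoxia 1 or 4 or hyperoxia 1 or 4 (adjusted p = 0.0691, 0.0868, 0.0877 and 0.0754 in edgeR), and the count is uncertain because 42.4% of the exon bases of Lats2 also lie in exons of Gm49361 on the same strand, a gene listed at 0 in every library.

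Of the angiomotin-like genes, 1 fell and the other did not pass the test. Amotl2 (ENSMUSG00000032531, chr9:102716672-102733418, plus strand) stood at 672, 721, 596 and 689 CPM in normoxia and at 430, 455, 505 and 434 CPM in hyperoxia. The groups were well apart, and hyperoxia 3 was the hyperoxia library nearest to normoxia. Its mean went from 669 ± 53.2 to 456 ± 34.6 CPM, a log2FC of -0.55 (SE 0.0703, adjusted p = 0.00016). Amotl1 (ENSMUSG00000013076, chr9:14541966-14645056, minus strand) stood at 373, 412, 338 and 401 CPM in normoxia and at 345, 390, 392 and 368 CPM in hyperoxia. Its groups overlapped almost fully. The log2FC was -0.03 (SE 0.0678, adjusted p = 0.78), with a 95% interval from -0.18 to 0.12.

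**Figure D1:**
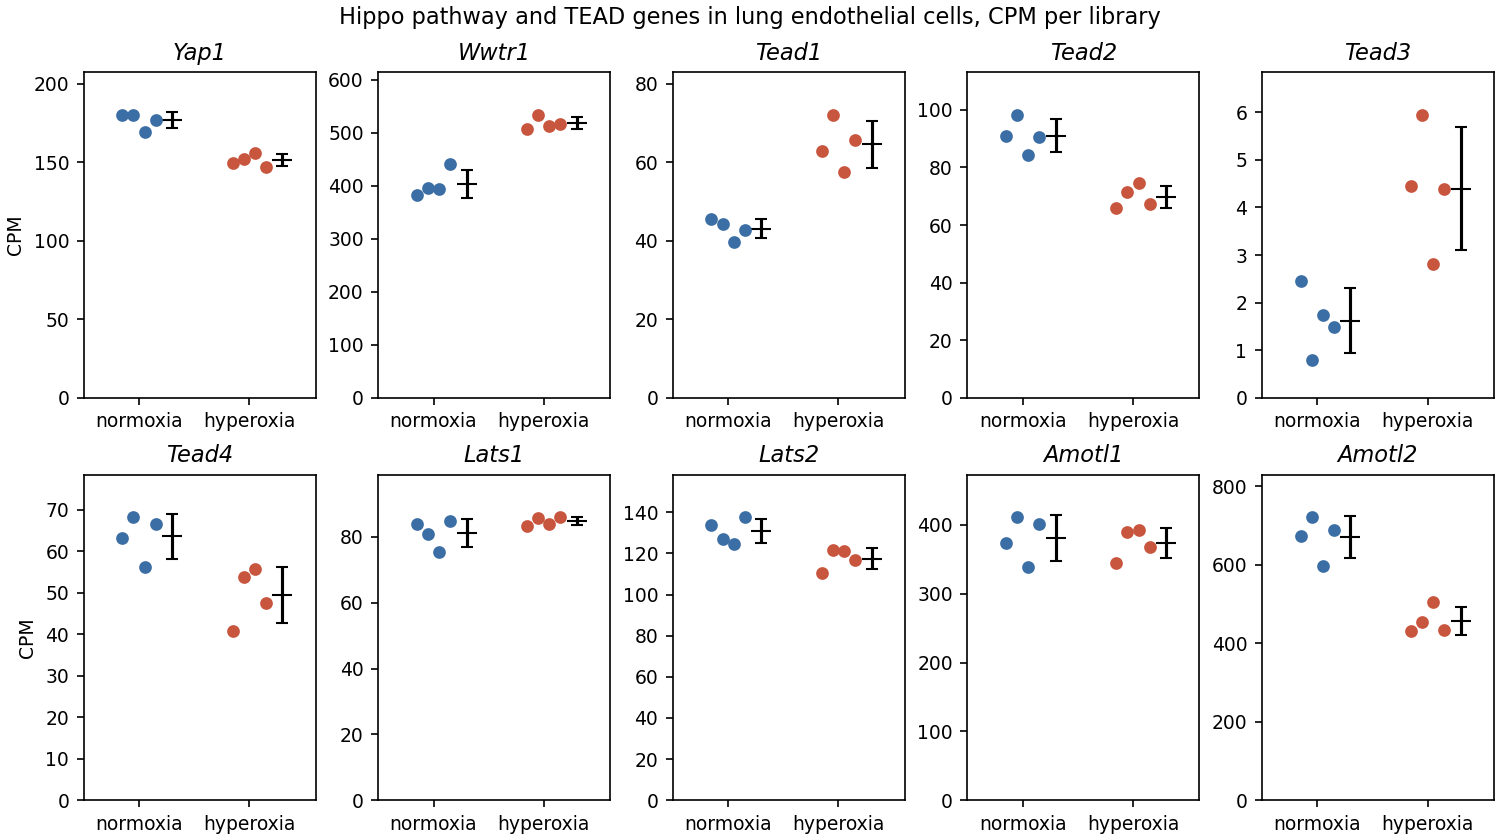
Each panel plots 1 gene, with its level in CPM on a vertical axis that starts at 0 and the normoxia (blue) and hyperoxia (red) libraries as points in the order 1 to 4. Black bars give the mean ± SD of 4 libraries. The groups are apart in 8 panels and overlap for Lats1 and Amotl1.

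Of the 10 genes, 8 were past an adjusted p of 0.05, 3 higher (Wwtr1, Tead1, Tead3) and 5 lower (Yap1, Tead2, Tead4, Lats2, Amotl2). Over all genes tested, 35.6% were past this threshold, 18.5% higher and 17.1% lower. In the same 8 genes the groups did not overlap, which held for 35.4% of all genes tested. Abundant genes passed more often, with 43.7% of the 9299 genes of at least 10 CPM and 7 of the 9 Hippo and TEAD genes of that level. With the further requirement of a change of at least 1 log2FC either way, Tead3 alone passed, beside 6.98% of all genes. The median absolute log2FC was 0.36 over the 10 genes and 0.23 over all genes tested, and the signed medians were -0.09 and -0.004.

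Levels of different genes were compared per length, as FPKM, which divides the fragments of a gene by its length in kilobases and by the size of the library. In normoxia Amotl2 was highest at 106 ± 8.13 FPKM, followed by Wwtr1 at 83.7 ± 5.43 and Amotl1 at 37.5 ± 3.14 FPKM. Next came Yap1, Tead2, Lats2 and Tead4 with means from 18.9 to 17.5 FPKM, and the ranges of neighbours in that order overlapped. Lats1 at 11.04 ± 0.591, Tead1 at 3.15 ± 0.181 and Tead3 at 0.239 ± 0.101 FPKM followed, each apart from the gene before it. In hyperoxia the top of this order was exchanged. Wwtr1 stood at 108 ± 2.57 FPKM and Amotl2 at 72.1 ± 5.66 FPKM, and their ranges were apart in both conditions. Below Amotl1 at 36.9 ± 2.28 FPKM, Lats2 and Yap1 overlapped at 16.8 and 16.3 FPKM, and Tead2, Tead4 and Lats1 overlapped from neighbour to neighbour between 14.5 and 11.6 FPKM. Tead1 and Tead3 again came last, at 4.73 ± 0.445 and 0.651 ± 0.191 FPKM. Over the 8 libraries, the FPKM of Wwtr1 and Amotl2 exceeded that of 97.2% and 97.0% of the genes tested, and that of Tead3 exceeded 10.7%.

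The balance within each pair of paralogues was compared inside each library, which removes differences of depth. The log2 ratio of Yap1 to Wwtr1 in FPKM went from -2.14 ± 0.101 to -2.73 ± 0.0458, so that Yap1 was 0.226 of the level of Wwtr1 in normoxia and 0.151 in hyperoxia. The log2 ratio of Amotl1 to Amotl2 went from -1.49 ± 0.0280 to -0.96 ± 0.0677, and that of Lats1 to Lats2 from -0.75 ± 0.0325 to -0.53 ± 0.0558. The groups did not overlap in any of the 3 ratios. Each gave an exact two-sided permutation p of 0.0286, the smallest that the 70 assignments of 8 libraries can give, and 0.0333 after adjustment over the 7 ratio and share measures. For Yap1 to Wwtr1 this p was fixed by the single genes. Yap1 was lower and Wwtr1 higher in every hyperoxia library, so their ratio restates those separations and is not a further test. The size of these differences was -0.59, 0.53 and 0.22 on the log2 scale. In the last 2 pairs the gene named second had the larger absolute log2FC and was lower in hyperoxia, while Amotl1 and Lats1 did not pass the test.

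The summed FPKM of the 4 TEAD genes was 39.8 ± 2.58 in normoxia (range 36.1 to 42.3) and 33.6 ± 2.75 in hyperoxia (range 30.1 to 36.0). Tead2 and Tead4 together made up 91.5 ± 0.585% of it in normoxia and 83.9 ± 2.03% in hyperoxia. The share of Tead1 rose from 7.93 ± 0.326% to 14.2 ± 1.51%, the share of Tead3 from 0.609 ± 0.266% to 1.95 ± 0.553%, and the share of Tead2 fell from 47.4 ± 0.845% to 43.3 ± 1.64%. The groups did not overlap in these 3 shares (exact permutation p = 0.0286, adjusted 0.0333 for each). For Tead1 and Tead3 this p was fixed in advance, since their FPKM was higher and the sum lower in every hyperoxia library. The 4 shares add up to the whole, so their tests are not independent. Without any 1 normoxia library the Tead2 and Tead3 shares missed the threshold (exact permutation p = 0.0571). Their groups stayed apart in those fits, with differences of -4.49 to -3.85 and 1.23 to 1.44 percentage points. With so few assignments left, the exact p moves in coarse steps. The share of Tead4 was 44.0 ± 1.03% and 40.6 ± 2.55%, and its difference missed the threshold (exact permutation p = 0.0571, adjusted 0.0571). Tead2 and Tead4 remained the 2 largest contributors in all 8 libraries, and in hyperoxia 3 the Tead1 share was 11.9% against 14.7% to 15.2% in the other hyperoxia libraries.

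**Figure D2:**
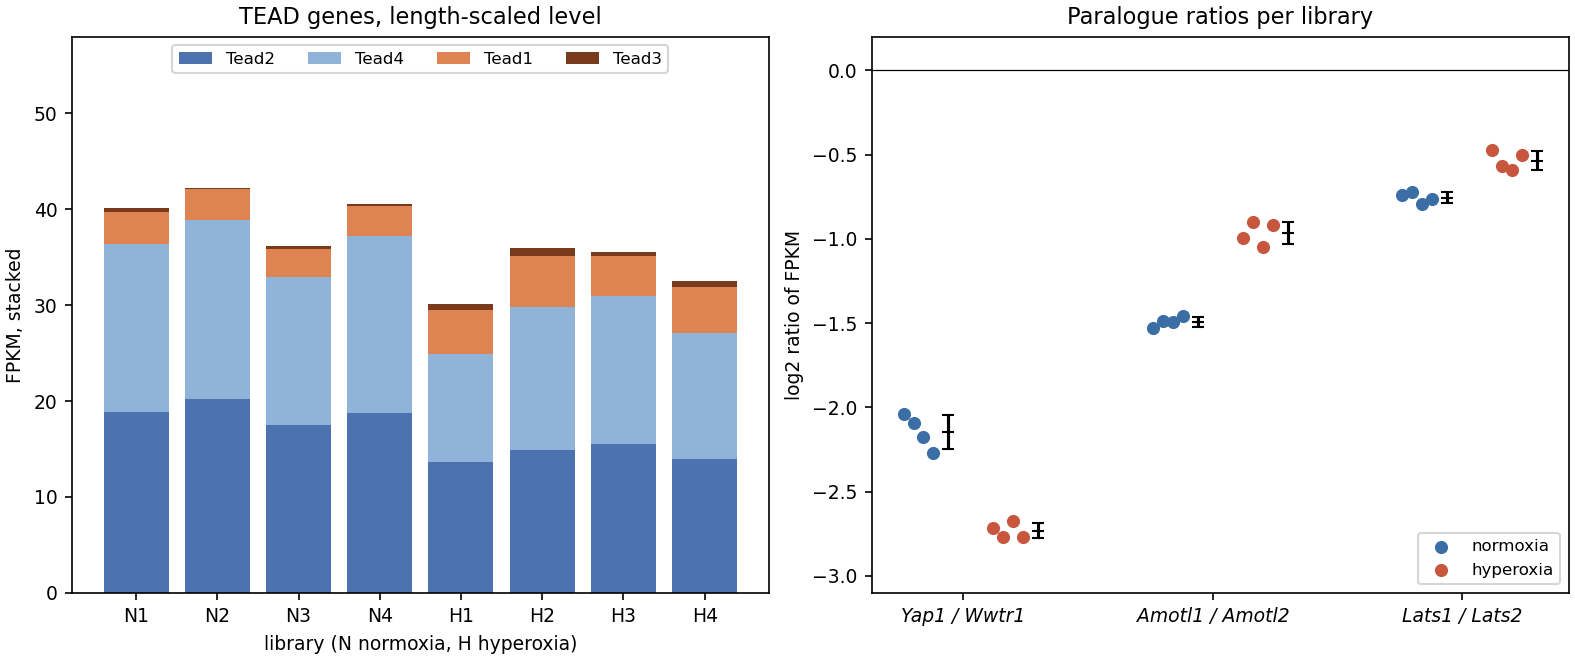
The left panel stacks the FPKM of the 4 TEAD genes for each normoxia (N1 to N4) and hyperoxia (H1 to H4) library, with the axis from 0. The right panel plots the log2 ratio of FPKM of each paralogue pair per library, with mean ± SD of 4 libraries. Normoxia sums reach 36.1 to 42.3 FPKM and hyperoxia sums 30.1 to 36.0, the Tead1 and Tead3 parts are larger in hyperoxia, and the groups are apart in all 3 ratios.

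The 18 further genes of the Hippo kinase cassette, its related kinases and its regulators were all tested. Of these, 10 passed the threshold, 4 higher and 6 lower, with a median log2FC of -0.11, and 11 did not overlap between the groups, against 35.6% past and 35.4% without overlap over all genes. Without hyperoxia 2 only 6 passed. Stk4, which encodes MST1, stood at 232, 235, 202 and 209 CPM in normoxia and at 99.2, 86.0, 101 and 80.0 CPM in hyperoxia. The groups were far apart, and Stk4 fell from 219 ± 16.4 to 91.5 ± 10.1 CPM (log2FC -1.26, SE 0.0819, adjusted p = 1.76e-06). Its paralogue Stk3, which encodes MST2 and was singled out after its values were seen, went from 51.6 ± 5.37 to 47.3 ± 3.35 CPM and did not pass (log2FC -0.13, adjusted p = 0.24). Amot, the angiomotin gene itself, fell from 52.5 ± 2.47 to 25.5 ± 1.45 CPM (log2FC -1.04, SE 0.0598, adjusted p = 8.31e-07). In that family Amot and Amotl2 thus fell while Amotl1 did not pass the test.

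Wwc1, which encodes the scaffold KIBRA, had the largest change of the 18. It stood at 2.14, 1.19, 0.559 and 0.773 CPM in normoxia and at 20.04, 15.3, 5.15 and 17.9 CPM in hyperoxia, with hyperoxia 3 the lowest of its group (log2FC 3.66, SE 0.468, adjusted p = 0.000171). The epithelial markers were also lowest in hyperoxia 3 among the hyperoxia libraries. With the epithelial or the mesenchymal score described below in the model, Wwc1 was not past the threshold. The cause of its change was not tested. Of the 3 most abundant genes of the list, the kinase gene Taok2 fell from 486 ± 41.3 to 378 ± 16.4 CPM (log2FC -0.36, adjusted p = 0.00131). Wwc2, a paralogue of Wwc1, rose from 231 ± 8.64 to 258 ± 10.9 CPM (log2FC 0.16, adjusted p = 0.0207). Map4k4, a kinase that can act on LATS, went from 740.0 ± 50.9 to 701 ± 25.7 CPM and did not pass (log2FC -0.08, adjusted p = 0.308). Frmd6, an upstream FERM-domain gene singled out after its values were seen, rose from 94.8 ± 1.88 to 142 ± 8.51 CPM (log2FC 0.59, adjusted p = 1.05e-05). The scaffold genes Sav1 and Nf2 and the LATS cofactor Mob1a, also chosen after their values were seen, did not pass. Their log2FC values were -0.19, -0.10 and 0.004 (adjusted p = 0.0596, 0.0738 and 0.957 in edgeR). For Nf2 every hyperoxia library lay below every normoxia library.

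Besides YAP and TAZ, TEAD proteins bind cofactors of the Vgll family, of which 2 of 4 genes were tested and 0 passed in edgeR. Vgll4, a repressor that competes with YAP for TEAD, went from 207 ± 26.1 to 184 ± 9.82 CPM (log2FC -0.17, adjusted p = 0.136). Vgll3 stood at 0.811 ± 0.304 and 2.06 ± 1.38 CPM (log2FC 1.35, adjusted p = 0.0563), with hyperoxia 3 at 0.572 CPM inside the normoxia range. Vgll1 had counts in 1 library alone, at 0.111 CPM, and Vgll2 was listed at 0.

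The list of YAP/TAZ target genes, written without Amotl2 and Lats2, held 20 genes, of which 19 were tested and Ankrd1 was not. Amotl2 and Lats2, known targets left out of it, were both past the threshold and lower (log2FC -0.55 and -0.16). The list was written with earlier results of these data known. Of the 19, 12 were past the threshold, all higher, and 0 were lower, with a median log2FC of 0.47, and 10 had hyperoxia above normoxia without overlap. Over all genes 18.5% were past it and higher, 17.1% past it and lower, and 35.4% without overlap. Rbms3, singled out after its values were seen, stood at -0.26 and was not past the threshold (adjusted p = 0.0525), but was a lower call without hyperoxia 1 or hyperoxia 2, with the replicate block and with the mesenchymal score described below (adjusted p = 0.0481, 0.0418, 0.0289 and 0.0457). The list summed to between 952 and 1106 CPM in normoxia and to between 1455 and 1518 CPM in hyperoxia. Ctgf, a matricellular gene widely used as a readout of YAP, stood at 75.6, 63.3, 63.9 and 53.7 CPM in normoxia and at 322, 203, 182 and 201 CPM in hyperoxia. The lowest hyperoxia library was above the highest normoxia library, and hyperoxia 1 was the highest of all (log2FC 1.82, SE 0.172, adjusted p = 2.06e-05). Cyr61, its close relative and the most abundant gene of the list, stood at 267, 233, 215 and 207 CPM in normoxia and at 246, 285, 305 and 306 CPM in hyperoxia. It rose less and its groups overlapped (log2FC 0.31, SE 0.0900, adjusted p = 0.0212).

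The other target genes that more than doubled were Tgfb2, Arhgef17, Igfbp3, Fjx1, Nt5e and F3. Tgfb2, a TGF-beta ligand, rose from 17.3 ± 1.69 to 50.02 ± 4.76 CPM (log2FC 1.53, adjusted p = 9.18e-07). Arhgef17 rose from 19.8 ± 1.26 to 54.3 ± 7.27 CPM (log2FC 1.45, adjusted p = 1.71e-06). These were the target genes with the smallest p. Igfbp3, a binding protein of insulin-like growth factors, rose from 8.495 ± 0.628 to 30.03 ± 13.5 CPM (log2FC 1.82, adjusted p = 0.000334), with hyperoxia 4 highest at 49.5 CPM. Fjx1 rose from 1.42 ± 0.219 to 4.51 ± 1.05 CPM (log2FC 1.67, adjusted p = 0.000217). In the scarce genes Fjx1, Nt5e and F3, and in Ctgf, hyperoxia 3 was the lowest of its group. In Tgfb2, Arhgef17 and Igfbp3 another hyperoxia library was lowest. Nt5e, which encodes the ecto-nucleotidase CD73, stood at 0.773 to 1.53 CPM in normoxia and at 10.51, 9.06, 3.66 and 9.21 CPM in hyperoxia (log2FC 2.85, adjusted p = 0.000114). F3, the gene of tissue factor, stood at 0.166 to 0.448 CPM and at 3.14, 2.89, 1.09 and 2.66 CPM (log2FC 3.06, adjusted p = 0.000251). Of the more abundant targets, the phosphatase gene Ptpn14 rose from 136 ± 14.6 to 188 ± 9.40 CPM (log2FC 0.47, adjusted p = 0.000675), and Crim1 went from 197 ± 20.6 to 227 ± 14.6 CPM and did not pass (log2FC 0.21, adjusted p = 0.0565). The feedback targets Amotl2 and Lats2, given above, were lower. Of the genes with a RefSeq window, GGAATG was in that of 6 of 14 target genes, 4 of 15 kinase cassette genes and 3 of 4 Vgll genes, beside the 14.4% of all genes.

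**Figure D3:**
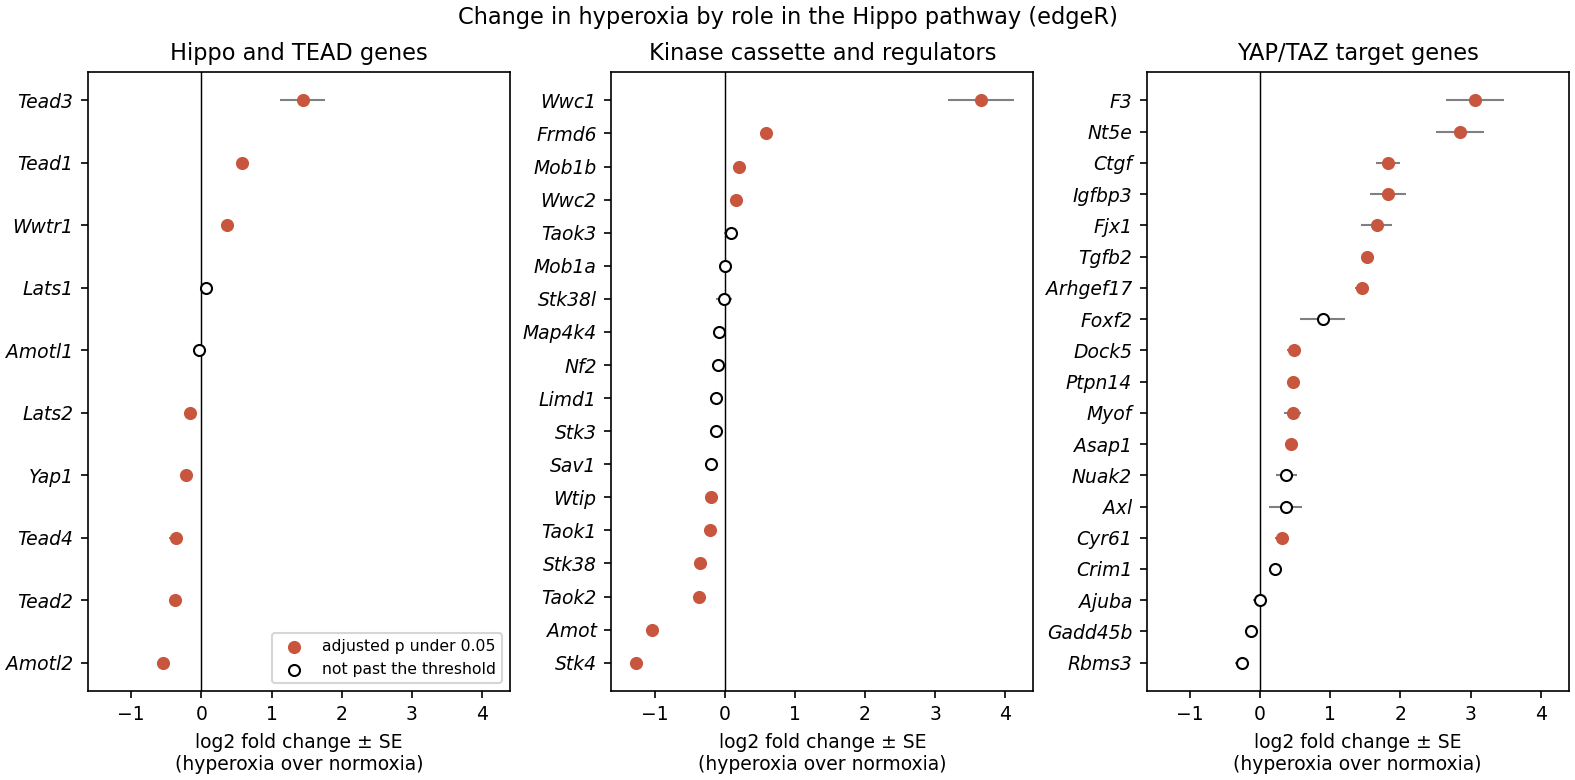
The horizontal axis is the log2FC of hyperoxia over normoxia with its SE, and filled points are past an adjusted p of 0.05 in edgeR. The left panel has the 10 Hippo and TEAD genes between -0.55 (Amotl2) and 1.44 (Tead3), the middle panel the 18 kinase cassette genes and regulators from Stk4 to Wwc1, and the right panel the 19 tested target genes, where all 12 filled points lie to the right of 0.

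Markers of other cells and of capillary subtypes moved with the same contrast. All 20 epithelial markers were higher in hyperoxia, with a median log2FC of 3.15, and Sftpc, the surfactant gene of alveolar type 2 cells, ran from 74.6 to 149 CPM in normoxia and from 419 to 1423 CPM in hyperoxia. Of 16 tested mesenchymal markers 12 were higher and 0 lower, with a median of 1.13, while their sum, which is mostly Eln, was 3984 to 6234 CPM against 4708 to 6477 CPM. The 3 general capillary markers fell (summed 1845 to 2038 against 864 to 1083 CPM), and the 3 markers of aerocytes, the capillary ECs of gas exchange, rose (661 to 927 against 1547 to 1834 CPM). Of 14 endothelial markers 5 were higher and 3 lower with a median of 0.05, and the most abundant, Cdh5, Pecam1 and Vwf, did not pass. Of 9 leukocyte markers 1 was higher, Lyz2, and 1 lower, Cd68 (summed 156 to 317 against 203 to 502 CPM), and 1 mesothelial marker of 4, Msln, was tested and was higher (summed 0.055 to 0.735 against 0.859 to 1.998 CPM). No defining marker of these lists was at 0 in every library.

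Among the 8 genes past the threshold, hyperoxia 3 was the hyperoxia library nearest to the normoxia mean for 6, namely Yap1, Tead1, Tead2, Tead3, Tead4 and Amotl2. Over all genes past the threshold this held for 43.6%. For Wwtr1 the nearest library was hyperoxia 1, and for Lats2 it was hyperoxia 2. Without hyperoxia 3 all 8 stayed past the threshold. The mean log2 CPM of the epithelial markers was 2.10 to 2.71 in normoxia, 3.97 in hyperoxia 3 and 5.36 to 5.48 in the other hyperoxia libraries.

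When this epithelial score was added to the edgeR model, 0 of the 10 genes were past the threshold, against 197 of all 15564 genes tested. Wwtr1 had a log2FC of 0.44 (SE 0.158, adjusted p = 0.273) and Amotl2 one of -0.19 (SE 0.177, adjusted p = 0.726) in that model. The estimates of Tead1, Tead2, Yap1 and Lats2 were 0.22, -0.17, -0.13 and -0.03 (adjusted p = 0.695, 0.748, 0.735 and 0.967). Tead3 changed sign to -0.22 (SE 0.761, adjusted p = 0.938), as did Tead4 to 0.08 (SE 0.254, adjusted p = 0.929) and Amotl1 to 0.20 (SE 0.194, adjusted p = 0.733). The score correlated with the group at r = 0.941, so every SE was more than 2 times as wide and the fit can separate group and score only in part. With the mesenchymal score (r = 0.841 with the group), 1 of the 10 genes passed, against 1200 of all 15564 genes tested. That gene was Wwtr1, at 0.42 (SE 0.101, adjusted p = 0.0349). Amotl2 stood at -0.46 (adjusted p = 0.0592), Tead1 at 0.32 (adjusted p = 0.0881) and Tead2 at -0.34 (adjusted p = 0.0995) in that fit. In the model with the epithelial score, 1 of the 19 target genes passed, which was Tgfb2 (log2FC 1.54, adjusted p = 0.0166), and 1 of the 18 kinase cassette genes, which was Amot (log2FC -0.93, adjusted p = 0.0446).

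**Figure D4:**
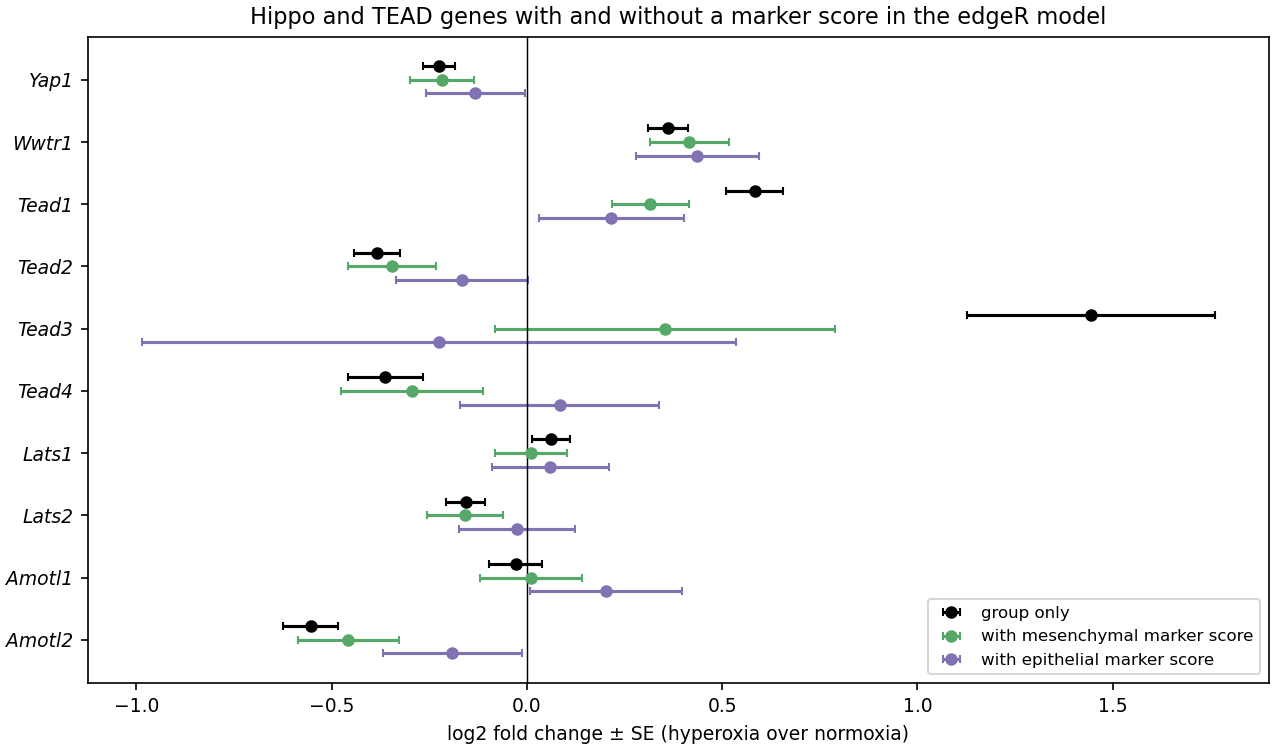
The horizontal axis is the log2FC of hyperoxia over normoxia with its SE for each of the 10 genes, in the edgeR model with the group alone (black), with the mesenchymal score (green) and with the epithelial score (purple). The purple bars are wider than the black for all 10 genes. The purple points are nearer to 0 for Amotl2, Tead1, Tead2, Yap1 and Lats2. For Tead3 and Tead4 they are nearer to 0 on its other side, while Wwtr1 stays between 0.36 and 0.44.

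The genes with the most similar pattern were looked up for Tead1, Amotl2 and Wwtr1, the 3 of the 10 with the smallest p. Likeness was the Pearson correlation of log2 CPM over the 8 libraries, among 9068 coding genes with a mean CPM of 10 or more, and it is carried mostly by the 2 groups. For Tead1 these were Edc4 (r = 0.994) and Tacc2 (r = 0.989). For Amotl2 they were Ankrd50 (r = 0.997) and Foxp1 (r = 0.996), and for Wwtr1 they were Dusp3 (r = 0.993) and Trim16 (r = 0.989). Ankrd50 and Foxp1 had log2FC values of -0.54 and -0.49, close to the -0.55 of Amotl2.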

How the data were processed

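The authors deposited whole-number gene counts and FPKM for 8 libraries. The gene length column, which the authors gave in bases, equalled the merged exon length of the GENCODE M21 annotation (GRCm38) for all 10 genes. The submitters' processing notes name HISAT2 2.0.5, featureCounts 1.5.0-p3 and the build mm10. Strand, multi-mapping reads and settings are not given in the sources used here. The labels name an RNeasy extraction kit and a SMARTER library kit, while the study's methods name TRIzol for the RNA of the ECs. The deposited FPKM equalled count over length and total, times a constant per library of 0.974 to 1.01. Samples were grouped by the treatment label.

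Counts were tested in edgeR 4.0.16 (R 4.3.3) by the quasi-likelihood test with TMM and filterByExpr defaults, over 15564 genes holding at least 99.8% of the counts. SE is the absolute log2 fold change over the root of F. The study had used DESeq2, which was an alternative (1.42.0), as was limma 3.58.1. Ratios and shares of FPKM had exact two-sided permutation tests. Tests on simulated counts of the 15564 genes recovered 45 of 100 genes changed by 0.5 and 69 of 100 changed by 1 on the log2 scale, with 8 false calls. Far fewer genes changed there than the 5535 called in the data, so these rates are not those of the main test. Chi-square per degree of freedom between replicate libraries was 4.97 to 18.1, so all counted as separate. Same-numbered libraries did not deviate together (r from -0.140 to 0.119).

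The members and lists were chosen with earlier results of these data known. The naming rule took the 10 genes, the 3 most abundant genes of each list, list genes past an adjusted p of 0.05 that changed by at least 1 on the log2 scale, and the nearest patterns. It was followed in full for the pathway lists, while marker lists are given mainly by counts and sums, and genes outside it are marked as chosen after their values were seen. Alternatives were other normalization, filters, tests, thresholds, pseudocounts (0.1 and 1 FPKM), marker scores, the replicate block and leaving out each library.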

Additional observations from a re-analysis of the deposited data

Results flagged for a closer look

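The share of Tead1 in the summed FPKM of the TEAD genes was 11.9% in hyperoxia 3 and 14.7% to 15.2% in the other hyperoxia libraries. This was the only 1 of 34 groups of 4 libraries examined in which the gap to the nearest library, 0.850 of the range of the group, exceeded the critical value of Dixon's test. Chance gives about 1 such group in 20. Hyperoxia 3 was also the hyperoxia library with the lowest epithelial marker sum (933 CPM), and the part of those markers in the share was not tested.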

How the results depend on the processing

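Over 16 alternatives without a marker score (normalization, filters, tests, FPKM with either pseudocount, replicate block, each library left out), 152 of 160 results of single genes kept their direction and side of the threshold. Of the rest, 6 were the lost Lats2 call, which besides 4 libraries left out concerned the fit without a filter and the replicate block (adjusted p = 0.0905 and 0.0792). Amotl1 ran from -0.0827 to 0.00967 with 1 library left out and was reversed without normoxia 2 (0.00815) and without hyperoxia 1 (0.00967). With the epithelial score Tead3, Tead4 and Amotl1 were reversed (-0.22, 0.0845 and 0.20), and with the mesenchymal score Amotl1 (0.0113). Tead3 ranged from 0.41 on log2(FPKM + 1) to 1.70.

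Of the 10 Hippo and TEAD genes, 0 passed with the epithelial score, 1 with the mesenchymal score and 1 with the fold requirement, against 8. Of the kinase cassette genes 1, 4 and 3 passed under those 3 settings against 10, and 6 at an adjusted p of 0.01. Of the target genes 1, 5 and 7 passed against 12. Of all genes 197, 1200 and 1087 passed against 5535, and 3527 at 0.01. With 1 library left out the counts ran from 7 to 8 for the Hippo and TEAD genes, from 6 (without hyperoxia 2) to 10 for the kinase cassette, from 11 to 14 for targets, and from 4526 to 5445 over all genes.

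The differences in ratio ran from -0.63 to -0.55 for Yap1 to Wwtr1, from 0.20 to 0.24 for Lats1 to Lats2 and from 0.51 to 0.55 for Amotl1 to Amotl2 with 1 library left out. The differences in TEAD share ran from 5.87 to 6.98 percentage points for Tead1, from -4.83 to -3.51 for Tead2, from 1.17 to 1.6002 for Tead3 and from -4.33 to -2.30 for Tead4. Without any 1 normoxia library the shares of Tead2 and Tead3 had an exact permutation p of 0.0571, while their groups stayed apart. The Tead4 share passed without hyperoxia 3 (-4.33) and when counts were not divided by length (-5.65). With the replicate number as a block, edgeR called 4792 of all genes, 7 of the Hippo and TEAD genes, 7 kinase cassette genes and 13 targets (12 higher, 1 lower), and it changed no member's call but that of Lats2. A sign-flip test over the same-numbered pairs cannot go below an exact permutation p of 0.125. The causes of these changes were not tested. Among the 10 genes Tead3 had the lowest counts, 14 to 105 per library.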
